A study of Mus musculus with 4 samples.

Results

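The D-type cyclins, their kinases, the CDK inhibitors that act on them and the pocket proteins they phosphorylate were examined in day 3 embryoid bodies (EBs) of WT and Gm11549 promoter KO mouse embryonic stem cells (mESCs). The group holds 10 genes, taken by gene symbol from the 24347 gene rows of each expression table, and all 10 were listed: Ccnd1, Ccnd2, Ccnd3, Cdk4, Cdk6, Cdkn1b, Cdkn2a, Cdkn2c, Rb1 and Rbl2. The study asked what Gm11549, a Nodal-induced gene that encodes the membrane micropeptide NEMEP, does during mesendoderm differentiation. EBs are aggregates of mESCs that begin to form germ layer cells once the self-renewal factor LIF is withdrawn. Both genotypes derive from 129/Ola mESCs, were grown without gelatin in serum medium lacking LIF, received no other treatment and were harvested at day 3, with 2 samples each. The promoter KO cells carry a CRISPR/Cas9 deletion of the Gm11549 promoter made with a pair of guides and were grown from single sorted cells, so a line is 1 clone. Samples carry the numbers 1 and 2 within a genotype, and the labels do not say whether the promoter KO samples come from the same clone. The labels call all samples ES-derived mesendoderm cells.

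D-type cyclins are made in response to growth signals and bind the kinases CDK4 and CDK6, and the active kinases phosphorylate the pocket proteins RB, p107 and p130, which releases E2F factors to switch on genes of DNA synthesis. INK4 inhibitors bind CDK4 and CDK6 and keep them from D-type cyclins, whereas CIP/KIP inhibitors such as p21, p27 and p57 bind whole cyclin-CDK complexes. Pluripotent mESCs are known for a short G1 phase with little control by this pathway, and G1 lengthens as they differentiate.

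Expression was given in FPKM, sequenced fragments scaled to transcript length and to the size of the library, so that levels can be compared between genes per length. Gm11549 itself, the targeted gene (chr3:36515057-36521813 in GRCm38), was at 0.750 and 0.522 FPKM in WT 1 and WT 2, compared with 0 and 0.0659 FPKM in samples 1 and 2 of promoter KO. Both promoter KO samples were below both WT samples, at levels too low for the test. The most frequent length-scaled value within a chosen search range among genes with 1 annotated transcript, shared by 92 to 106 genes a sample and taken as 1 fragment, placed the samples at about 25200000, 22300000, 22100000 and 20600000 fragments for WT 1, WT 2, promoter KO 1 and promoter KO 2, on the scale of the deposited normalization. These are rough estimates from normalized values, used below only to show how few fragments stand behind low levels, and the sequencing depth itself was not examined.

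A gene entered the test where 2 or more of the 4 samples reached 1 FPKM. Genotypes were compared with limma on log2(FPKM + 1), and a gene was called when its p-value, adjusted over the 11941 tested genes, was under 0.05. A log2 fold change below is promoter KO minus WT on this scale, which understates the change of genes near 1 FPKM. Of the 10 members, 8 passed the filter, and Cdkn2c and Rbl2 did not. limma called 0 of the 8 tested members higher, where 1.68% of all tested genes were called higher, and 0 of 8 lower, where 1.89% were called lower. At an unadjusted p under 0.05, 2 tested members were higher and 3 lower, together 5 of 8, beside 30.6% over all tested genes. The genotypes did not overlap, with both promoter KO samples above or below both WT samples, for 6 of the 8 tested members, beside 65.3% of all tested genes. The 8 members had a median log2 fold change of 0.05, with 5 positive and 3 negative values, and that of the whole tested set was 0.00. The median size of the difference, sign aside, was 0.36 for the 8 members and 0.21 for all tested genes. Without WT 2, and likewise without promoter KO 1, limma called 0 genes in either direction among all tested genes, with 1875 and 2009 at an unadjusted p under 0.05. With 2 samples a genotype, the smallest p of an exact two-sided permutation test on 1 gene is 0.333, and p-values measure only the spread between these samples, which may be technical.

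**Figure D1:**
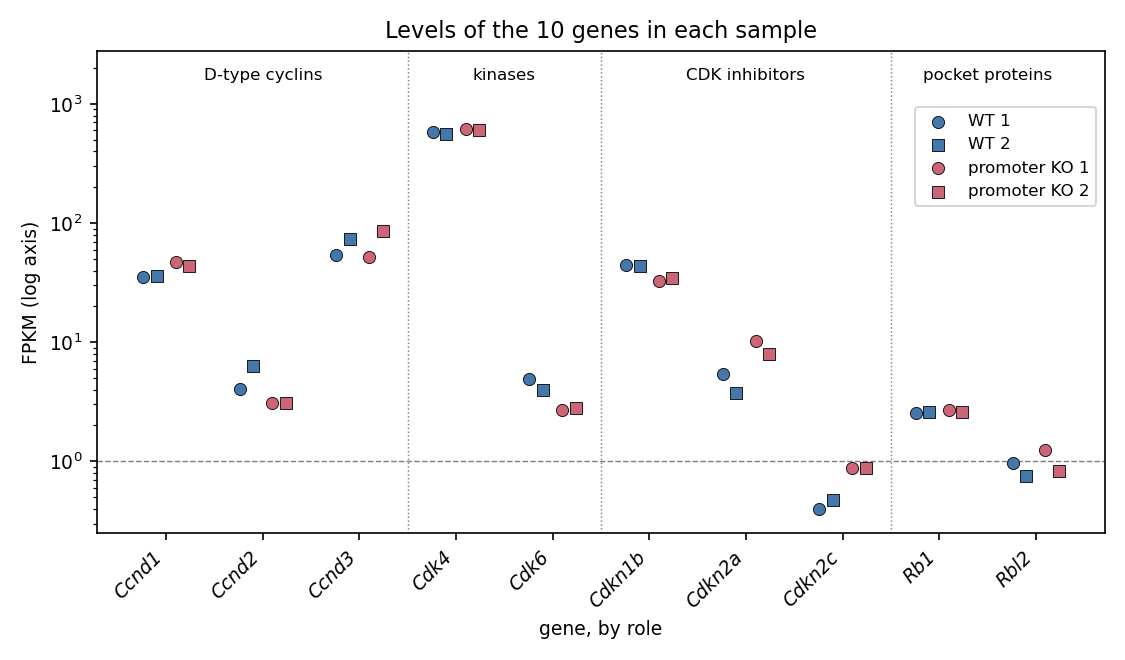
FPKM of the 10 genes in each of the 4 samples on a log axis, ordered by role, with circles for sample 1 and squares for sample 2 of WT (blue) and promoter KO (red). The dashed line marks 1 FPKM. Cdk4 lies between 556 and 619 FPKM in the 4 samples, far above the rest, and Cdkn2c stays below 1 FPKM in each.

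The members spanned a wide range of levels. In WT the order of mean FPKM was Cdk4, Ccnd3, Cdkn1b, Ccnd1, Ccnd2, Cdkn2a, Cdk6, Rb1, Rbl2 and Cdkn2c, and the sample ranges of neighbours overlapped between Ccnd2 and Cdkn2a and between Cdkn2a and Cdk6, so these 3 were not separated. In promoter KO the order was Cdk4, Ccnd3, Ccnd1, Cdkn1b, Cdkn2a, Ccnd2, Cdk6, Rb1, Rbl2 and Cdkn2c, and the neighbours not separated were Cdk6 with Rb1 and Rbl2 with Cdkn2c. Cdkn1b was above Ccnd1 in both WT samples and below it in both promoter KO samples. The values of Cdkn2a overlapped those of Ccnd2 in WT and exceeded them in both promoter KO samples.

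Among the D-type cyclins, Ccnd3 was the most abundant and Ccnd2 the least. Genotypes separated for Ccnd1, with promoter KO higher, and for Ccnd2, with promoter KO lower, and they overlapped for Ccnd3. Such separation was found for 65.3% of all tested genes, and limma called 0 of the 3 cyclins. Ccnd1 (chr7:144929931-144939925, minus strand), which encodes cyclin D1, was at 35.4 and 36.2 FPKM in WT 1 and WT 2, compared with 47.4 and 43.7 FPKM in samples 1 and 2 of promoter KO. The promoter KO samples were both above the WT samples, and the samples of a genotype lay close together. The mean was 35.8 ± 0.587 FPKM for WT and 45.6 ± 2.68 FPKM for promoter KO (SD, n = 2 samples each), a ratio of 1.27. The log2 fold change of Ccnd1 was 0.34 (SE 0.09, 95% confidence interval 0.12 to 0.56), and the limma adjusted p of 0.0779 did not pass the threshold. Exons of Ccnd1 are overlapped on the opposite strand by LTO1, which had no value under that symbol.

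Ccnd2 (chr6:127125162-127152193, minus strand), which encodes cyclin D2, was at 4.08 and 6.29 FPKM in the WT samples against 3.11 and 3.07 FPKM in the promoter KO samples. Its exons are overlapped on the opposite strand by 9330179D12Rik, at 0 FPKM in each sample, and by Gm43126, which had no value under that symbol. The genotypes did not overlap, promoter KO being lower, and WT 2 stood above WT 1 by more than WT 1 stood above promoter KO. Its mean was 5.18 ± 1.56 FPKM for WT and 3.09 ± 0.0329 FPKM for promoter KO (SD, n = 2 samples each), a ratio of 0.596. The log2 fold change was -0.57 (SE 0.20, 95% confidence interval -1.06 to -0.08) with a limma adjusted p of 0.125, so Ccnd2 did not pass the test. The value was -0.31 without WT 2 (limma adjusted p = 0.440) and -0.83 without WT 1 (limma adjusted p = 0.0907), so its size rests largely on which WT sample is kept.

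Ccnd3 (chr17:47505051-47599691, plus strand), which encodes cyclin D3, was at 53.8 and 74.1 FPKM in the WT samples against 51.9 and 85.6 FPKM in the promoter KO samples. The genotypes overlapped, and sample 2 was above sample 1 in both genotypes. The spread between samples of the same genotype, an SD of 0.42 on the log2 scale, was larger than that of 96.8% of the tested genes, whose median SD was 0.12. The log2 fold change of Ccnd3 was 0.08 (SE 0.26, 95% confidence interval -0.55 to 0.70; limma adjusted p = 0.858). It turned to -0.15 without WT 1 and to -0.28 without promoter KO 2, so no direction can be given for this gene. Part of its exons is overlapped on the opposite strand by Bysl, at 36.1 and 34.5 FPKM in the WT samples against 48.0 and 59.3 FPKM in the promoter KO samples, and the annotation holds a near-identical copy, Ccnd3-ps. Reads could not be assigned between them here, so the Ccnd3 level carries that uncertainty.

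Per length, Ccnd3 supplied 57.7% and 63.5% of the summed FPKM of the D-type cyclins in WT 1 and WT 2 and 50.7% and 64.7% in promoter KO 1 and promoter KO 2. The share of Ccnd1 was 38.0% and 31.1% in WT and 46.3% and 33.0% in promoter KO. Both shares overlapped between genotypes. Ccnd2 made up 4.37% and 5.39% in WT and 3.04% and 2.32% in promoter KO, with both promoter KO samples below both WT samples. The summed FPKM of the 3 cyclins was 93.2 and 117 in WT and 102 and 132 in promoter KO, and these sums overlapped too. Transcript shares do not give shares of protein.

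**Figure D2:**
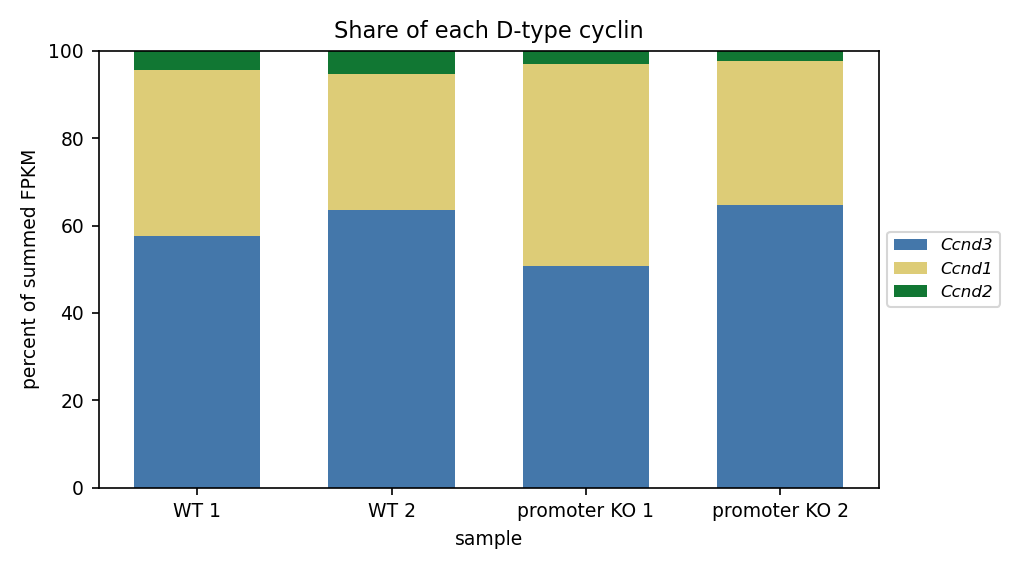
Share of Ccnd3, Ccnd1 and Ccnd2 in the summed FPKM of the D-type cyclins, in percent, with 1 bar for each sample. Ccnd3 holds 50.7% to 64.7% of the sum, and Ccnd2 holds at most 5.39%.

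The tested genes whose profile over the 4 samples was most like that of each cyclin were found by the Euclidean distance between log2(FPKM + 1) values centred on their mean. For Ccnd1 the nearest were Faah (distance 0.0189) and Tgoln1 (0.0202). For Ccnd2 they were Syt17 (0.0520) and Hcfc1r1 (0.0574). For Ccnd3 they were Gpr108 (0.0575) and Supt3 (0.0720). Profiles over 4 samples are matched by many genes, and limma called 0 of these 6 genes, with adjusted p from 0.0878 for Hcfc1r1 to 0.813 for Gpr108.

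Of the kinases that D-type cyclins activate, Cdk4 (chr10:127063534-127067920, plus strand) was at 581 and 556 FPKM in the WT samples against 619 and 603 FPKM in the promoter KO samples. The promoter KO samples both exceeded the WT samples by a small margin, and the level lay above that of 99.4% of all gene rows in each genotype. The mean was 569 ± 17.7 FPKM for WT and 611 ± 11.0 FPKM for promoter KO (SD, n = 2 samples each), a ratio of 1.07. Its log2 fold change was 0.10 (SE 0.07, 95% confidence interval -0.07 to 0.28; limma adjusted p = 0.355), and it did not pass the test. Under quantile normalization it was 0.022 (limma adjusted p = 0.837). The exons of Cdk4 are overlapped on the opposite strand by Tspan31, which was at 58.6 and 59.1 FPKM in the WT samples against 45.2 and 46.4 FPKM in the promoter KO samples.

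Since Cdk4 stood so far above the other members, the 249 bases before its annotated first exon are shown from the RefSeq promoter table (GRCm38, chr10:127063285-127063533, plus strand, 5′ to 3′), with each match to CACGTG, the palindromic E-box to which MYC proteins bind, in capitals.
Cdk4 promoter: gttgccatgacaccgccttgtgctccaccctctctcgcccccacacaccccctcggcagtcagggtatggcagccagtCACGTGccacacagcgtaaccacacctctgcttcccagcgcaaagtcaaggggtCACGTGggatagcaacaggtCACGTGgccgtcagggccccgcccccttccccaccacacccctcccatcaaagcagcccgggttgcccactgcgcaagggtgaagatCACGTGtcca
The stretch holds 4 matches. In windows of 300 bases, from 250 before to 50 after each start, CACGTG was found in 7.15% of 32851 RefSeq promoters and at least 4 times in 8 of them. Of the 10 promoters found for 7 members, 3 had it: that of Cdk4 with 4 matches, that of Cdk6 with 1, and 1 of the 2 of Cdkn2c with 1. Whether the matches bear on the level of Cdk4 was not tested. A match to these letters is a description of the sequence and shows no binding.

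Cdk6 (chr5:3341485-3531008, plus strand), the second D-cyclin kinase, was at 4.95 and 3.98 FPKM in the WT samples against 2.68 and 2.80 FPKM in the promoter KO samples. The promoter KO samples were both below the WT samples. Its mean was 4.46 ± 0.682 FPKM for WT and 2.74 ± 0.0866 FPKM for promoter KO (SD, n = 2 samples each), a ratio of 0.613. The log2 fold change of Cdk6 was -0.54 (SE 0.15, 95% confidence interval -0.92 to -0.17; limma adjusted p = 0.0869), which did not pass the threshold. Exons of Cdk6 are overlapped on the opposite strand by Gm17590, and the annotation lists a near-identical copy of part of Cdk6, Gm16505. Neither had a value under its symbol, so the Cdk6 level carries that uncertainty. The ratio of Cdk4 to Cdk6 in FPKM was 118 and 139.7 in WT 1 and WT 2 and 231 and 215 in promoter KO 1 and promoter KO 2, so Cdk4 was far above Cdk6 in every sample. The ratio was higher in both promoter KO samples than in either WT sample, which was not tested.

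Among the inhibitors, Cdkn1b lay lower in promoter KO while Cdkn2a and Cdkn2c lay higher. The genotypes did not overlap for any of these 3, nor did they for 65.3% of all tested genes. Cdkn1b and Cdkn2a did not pass the test, and Cdkn2c was not tested. Cdkn1b (chr6:134920401-134925513, plus strand), which encodes the CIP/KIP inhibitor p27, was at 44.9 and 43.4 FPKM in the WT samples against 32.8 and 34.6 FPKM in the promoter KO samples. The genotypes did not overlap, promoter KO being lower, and the samples of each genotype nearly coincided. The mean was 44.1 ± 1.02 FPKM for WT and 33.7 ± 1.26 FPKM for promoter KO (SD, n = 2 samples each), a ratio of 0.763. Its log2 fold change of -0.38 (SE 0.09, 95% confidence interval -0.59 to -0.17) had a limma adjusted p of 0.0646, the smallest among the tested members, and did not pass the threshold. Cdkn1b has no exon overlapped by another annotated gene and no near-identical copy.

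Cdkn2a (chr4:89274471-89294653, minus strand) was at 5.40 and 3.78 FPKM in the WT samples against 10.2 and 7.92 FPKM in the promoter KO samples. Higher values were found in both promoter KO samples than in either WT sample, and each genotype had a visible spread. The mean was 4.59 ± 1.15 FPKM for WT and 9.08 ± 1.64 FPKM for promoter KO (SD, n = 2 samples each), a ratio of 1.98. This was the largest difference among the tested members, with a log2 fold change of 0.86 (SE 0.20, 95% confidence interval 0.37 to 1.34) and a limma adjusted p of 0.0652, which did not pass the threshold. The size of its log2 fold change exceeded that of 95.2% of the tested genes. If all fragments came from the longer transcript, these values would rest on about 89.3 and 55.9 fragments in WT and 147 and 105 fragments in promoter KO.

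Cdkn2a is a single row for the transcripts of 2 proteins with different actions: p16Ink4a, which inhibits CDK4 and CDK6, and p19Arf, which stabilizes p53 by binding MDM2. In GENCODE the p16Ink4a transcript has 852 bases and the p19Arf transcript 895 bases, of which 575 are shared, and their first exons lie at chr4:89281986-89282192 and chr4:89294334-89294653. The FPKM of the gene does not say which of them was expressed, and neither can the sequence before each start. That sequence is shown from the RefSeq promoter table (GRCm38, minus strand, 5′ to 3′), up to the annotated first exon. Capitals mark matches to the E2F motif, searched on both strands as TTTCCCGC, TTTGGCGC, TTTCGCGC or TTTGCCGC.
Cdkn2a, p19Arf start, chr4:89294654-89294869: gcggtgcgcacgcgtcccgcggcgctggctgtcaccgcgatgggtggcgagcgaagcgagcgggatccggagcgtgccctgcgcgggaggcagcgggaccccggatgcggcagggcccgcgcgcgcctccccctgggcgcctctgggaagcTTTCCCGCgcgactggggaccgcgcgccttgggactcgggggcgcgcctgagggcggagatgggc
Cdkn2a, p16Ink4a start, chr4:89282193-89282442: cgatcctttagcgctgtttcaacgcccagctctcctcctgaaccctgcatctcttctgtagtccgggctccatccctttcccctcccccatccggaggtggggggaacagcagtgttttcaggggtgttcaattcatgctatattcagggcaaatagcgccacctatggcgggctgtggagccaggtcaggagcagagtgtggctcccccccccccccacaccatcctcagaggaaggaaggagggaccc
The p19Arf stretch, with a GC content of 78.7%, holds 1 match, and the p16Ink4a stretch, with a GC content of 60.0%, holds 0. In windows of 300 bases around the start, 2.27% of all 32851 RefSeq promoters had a match. So had 10 of the 22 promoters found for 19 of the E2F target genes and 1 of the 10 promoters found for 7 of the members. The match is a description, and its absence says only that these letters are not in the window.

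Cdkn2c (chr4:109660876-109667189, minus strand), which encodes the INK4 inhibitor p18, was the least abundant member, at 0.397 and 0.471 FPKM in the WT samples against 0.879 and 0.877 FPKM in the promoter KO samples. The promoter KO samples nearly coincided and both exceeded the WT samples, with a ratio of means of 2.02. No sample reached 1 FPKM, so the gene was not tested. On its longest transcript these levels stand for about 22.3 and 23.5 fragments in WT and 43.2 and 40.1 fragments in promoter KO, which limits their precision.

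The 2 members that encode pocket proteins overlapped between genotypes. Rb1 (chr14:73183673-73325822, minus strand), which encodes RB, was at 2.55 and 2.60 FPKM in the WT samples against 2.72 and 2.58 FPKM in the promoter KO samples. The 4 samples lay within a narrow range, with promoter KO 2 between the WT samples. Its log2 fold change was 0.03 (SE 0.14, 95% confidence interval -0.31 to 0.37; limma adjusted p = 0.903), and it ran from 0.0031 to 0.073 over the alternatives. Rbl2 (chr8:91070057-91123844, plus strand), which encodes p130, was at 0.964 and 0.749 FPKM in the WT samples against 1.25 and 0.830 FPKM in the promoter KO samples. Promoter KO 2 lay between the WT samples, only promoter KO 1 exceeded 1 FPKM, and Rbl2 was not tested. Exons of both genes are overlapped on the opposite strand by more abundant genes: Rb1 by Rcbtb2, at 15.9 and 17.3 FPKM in the WT samples against 9.55 and 12.0 FPKM in the promoter KO samples, and by Lpar6, at 6.40 to 7.43 FPKM over the 4 samples, and Rbl2 by Aktip, at 15.1 to 15.4 FPKM. Without the strand setting, the low levels of Rb1 and Rbl2 carry that uncertainty.

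**Figure D3:**
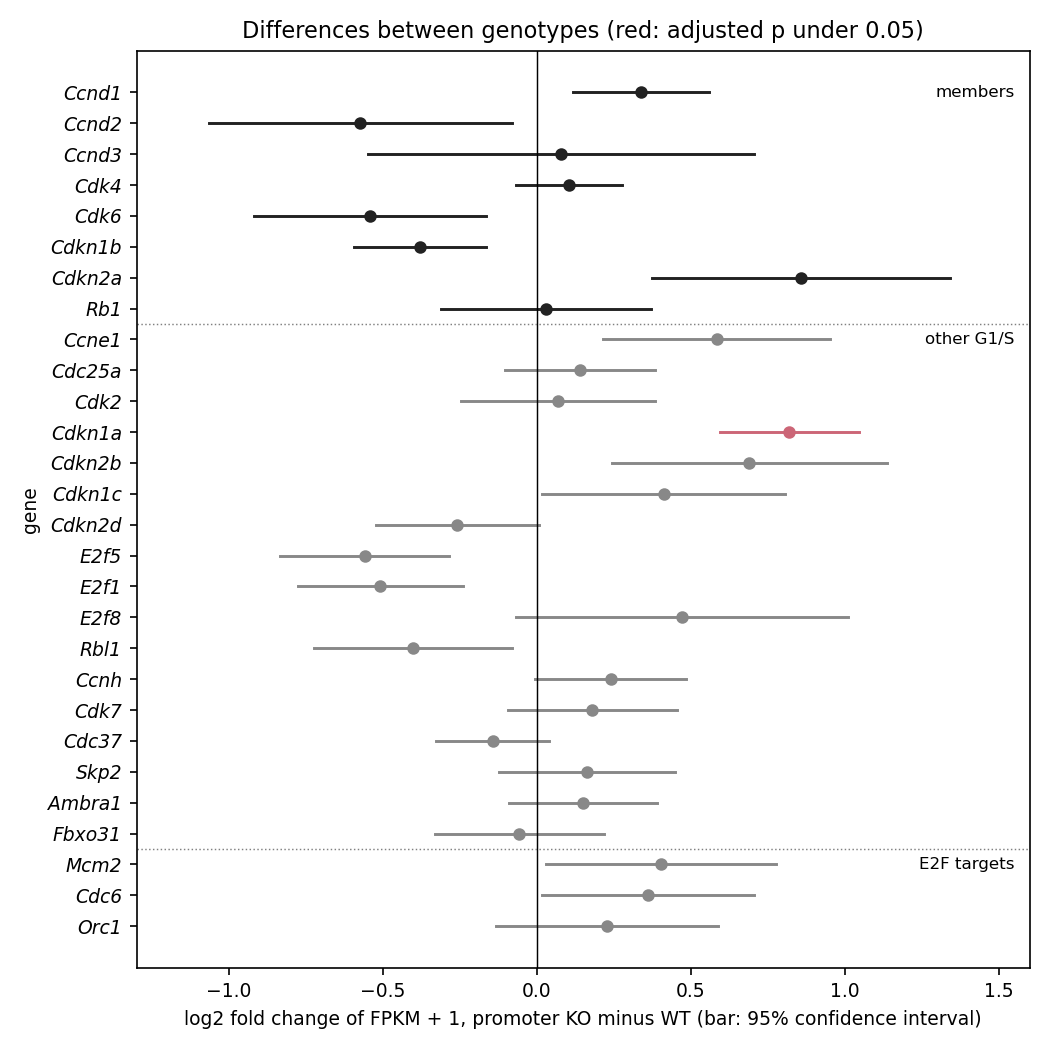
log2 fold change of FPKM + 1 (promoter KO minus WT, x axis) with its 95% confidence interval for the 8 tested members, the named other G1/S genes and the named E2F target genes (y axis). Cdkn1a, in red, is the only gene drawn with an adjusted p under 0.05, at 0.82, and among the members the intervals of Ccnd3, Cdk4 and Rb1 include 0.

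The other inhibitors of the same families were compared from a list of 4 genes, all tested. limma called 1 of the 4 higher and 0 lower, beside 1.68% and 1.89% of all tested genes. At an unadjusted p under 0.05, 3 of 4 were higher, beside 1786 of all 11941 tested genes. The gene that rose was Cdkn1a, which encodes the CIP/KIP inhibitor p21, a well-known target of p53, at 43.8 and 49.5 FPKM in the WT samples against 82.5 and 83.3 FPKM in the promoter KO samples. The genotypes were well separated, so leaving out a sample could not turn the direction. The log2 fold change of Cdkn1a was 0.82 (SE 0.09, 95% confidence interval 0.59 to 1.05; limma adjusted p = 0.0280). Its direction held in each alternative, but its adjusted p from limma was 0.0584 without WT 1, 0.126 without WT 2, 0.127 without promoter KO 1, 0.0563 without the intensity trend and 0.133 without the filter, within a range of 0.0120 to 0.133 over the alternatives.

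Cdkn2b, which encodes the INK4 inhibitor p15 and lies beside Cdkn2a at chr4:89306299-89311039, was at 1.51 and 0.965 FPKM in the WT samples against 2.79 and 2.38 FPKM in the promoter KO samples. Its promoter KO values both exceeded its WT values, with a log2 fold change of 0.69 (limma adjusted p = 0.0768). On its single transcript this is about 43.9 and 24.9 fragments in WT and 70.7 and 55.8 fragments in promoter KO. Cdkn1c, which encodes p57, was at 23.1 and 26.6 FPKM in the WT samples against 38.8 and 28.6 FPKM in the promoter KO samples, with a log2 fold change of 0.41 (limma adjusted p = 0.153), which was 0.20 without promoter KO 1 and 0.62 without promoter KO 2. Cdkn2d, which encodes the INK4 inhibitor p19Ink4d, was at 15.5 and 16.3 FPKM in the WT samples against 12.7 and 13.6 FPKM in the promoter KO samples, with a log2 fold change of -0.26 (limma adjusted p = 0.169). The genotypes did not overlap for Cdkn2b, Cdkn1c or Cdkn2d, nor did they for 65.3% of all tested genes, and none of these 3 passed the test.

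**Figure D4:**
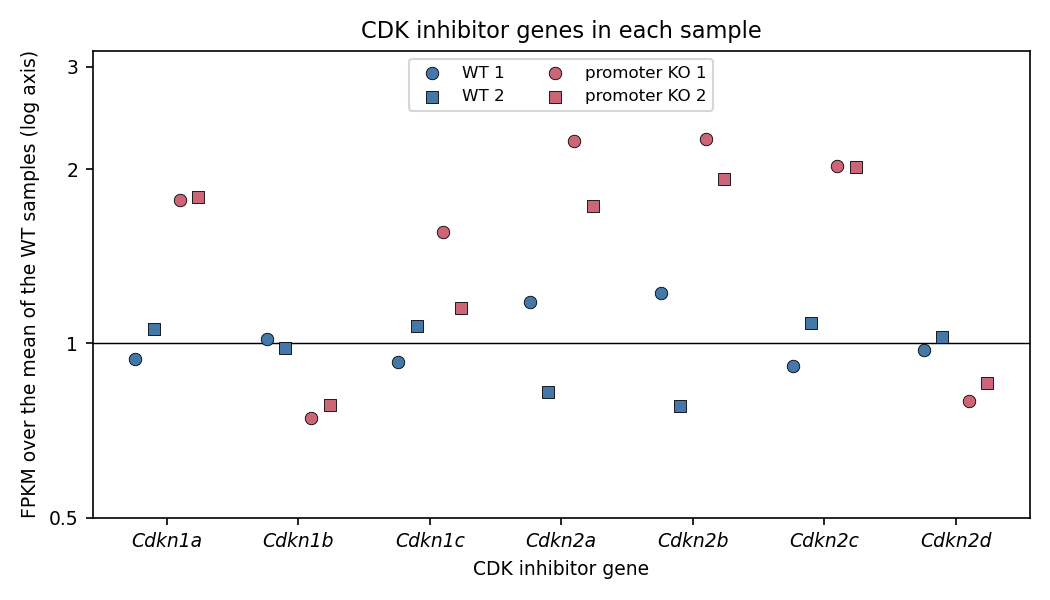
FPKM of 7 CDK inhibitor genes in each sample divided by the mean of the WT samples (log axis), with circles for sample 1 and squares for sample 2 of WT (blue) and promoter KO (red). Both promoter KO samples lie above both WT samples for Cdkn1a, Cdkn1c, Cdkn2a, Cdkn2b and Cdkn2c and below them for Cdkn1b and Cdkn2d. Such separation was found for 65.3% of all tested genes.

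Across all 7 inhibitor genes the summed FPKM was 135 and 141 in WT 1 and WT 2 and 181 and 171 in promoter KO 1 and promoter KO 2. The genotypes did not overlap for 65.3% of all tested genes, nor did they for the shares of Cdkn1b and Cdkn1a in this sum. Cdkn1b supplied 33.3% and 30.8% of it in WT and 18.2% and 20.2% in promoter KO, while Cdkn1a supplied 32.5% and 35.1% in WT and 45.7% and 48.7% in promoter KO. The p21 and p27 transcripts were thus about level in WT, and p21 transcripts exceeded p27 transcripts in both promoter KO samples. These shares were not tested.

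The cyclins that act after the D-type cyclins, with CDK2 and its activator CDC25A, formed a list of 6 genes, of which 5 were tested and 0 called by limma. At an unadjusted p under 0.05, where 1786 of all 11941 tested genes were higher, 1 of the 5 was higher. That gene was Ccne1, which encodes cyclin E1, at 80.1 and 70.3 FPKM in the WT samples against 130.5 and 97.7 FPKM in the promoter KO samples. Its promoter KO values both exceeded its WT values, though they lay well apart from each other. The log2 fold change of Ccne1 was 0.58 (SE 0.15, 95% confidence interval 0.22 to 0.95; limma adjusted p = 0.0740, range over the alternatives 0.0257 to 0.321). Without promoter KO 2 the log2 fold change was 0.79 and passed the limma test (adjusted p = 0.0439), and without promoter KO 1 it was 0.38 and did not (adjusted p = 0.245). Cdc25a had a log2 fold change of 0.14 (limma adjusted p = 0.374) and Cdk2 of 0.07 (limma adjusted p = 0.745). With each sample left out in turn they ran from 0.072 to 0.21 and from -0.073 to 0.21. Ccna1, a germ cell cyclin, stayed below 1 FPKM in each sample and was not tested.

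Of the 11 genes for the third pocket protein and the E2F and DP factors, all tested, limma called 0. At an unadjusted p under 0.05, 3 of the 11 were lower, beside 1863 of all 11941 tested genes. E2f5, an E2F that acts with pocket proteins as a repressor, was at 23.3 and 27.02 FPKM in the WT samples against 16.8 and 16.6 FPKM in the promoter KO samples. Lower values were found in both promoter KO samples than in either WT sample, with a log2 fold change of -0.56 (limma adjusted p = 0.0541). E2f1, an activating E2F, was at 26.7 and 25.1 FPKM in the WT samples against 19.1 and 16.8 FPKM in the promoter KO samples, with a log2 fold change of -0.51 (limma adjusted p = 0.0585) and no overlap between genotypes. Rbl1, which encodes p107, was at 6.72 and 6.43 FPKM in the WT samples against 4.496 and 4.97 FPKM in the promoter KO samples, again without overlap, with a log2 fold change of -0.40 (limma adjusted p = 0.111). E2f8, an atypical repressor, had a log2 fold change of 0.47 (limma adjusted p = 0.207), which was 0.15 without WT 2 and 0.80 without WT 1. The remaining genes, E2f2, E2f3, E2f4, E2f6, E2f7, Tfdp1 and Tfdp2, did not pass the test either.

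Of the genes for the CDK-activating kinase and for a chaperone of CDK4, 4 of 4 were tested and 0 were called by limma, with 0 at an unadjusted p under 0.05. Ccnh, the cyclin of that kinase, had a log2 fold change of 0.24 (limma adjusted p = 0.169), Cdk7 of 0.18 (0.316) and Cdc37, whose product chaperones CDK4, of -0.14 (0.246). For the turnover of D-type cyclins and p27, 4 of 5 genes were tested and 0 were called by limma, with 0 at an unadjusted p under 0.05. Skp2, the ubiquitin ligase subunit that targets p27, had a log2 fold change of 0.16 (limma adjusted p = 0.379), Ambra1, which directs D-type cyclins to degradation, of 0.15 (0.337), and Fbxo31 of -0.06 (0.757). With each sample left out in turn Skp2 ran from 0.042 to 0.28 and Fbxo31 from -0.14 to 0.023. Together the other G1/S genes numbered 30, of which 28 were tested, with a median log2 fold change of 0.07. limma called 1 higher and 0 lower, beside 1.68% and 1.89% of all tested genes. At an unadjusted p under 0.05 there were 7 of the 28, beside 30.6% of all tested genes.

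The genes that E2F factors switch on were read from a list of 22, all tested. limma called 0 of 22, with adjusted p-values of 0.144 or above. Before adjustment, where 30.6% of all tested genes had a p under 0.05 in either direction, 2 of the 22 were higher and 0 lower. Their log2 fold changes ran from -0.13 to 0.40 with a median of 0.07, beside 0.00 for the whole set of tested genes, and 15 were positive and 7 negative. Mcm2, a subunit of the replicative helicase, was at 193 and 172 FPKM in the WT samples against 282 and 207 FPKM in the promoter KO samples, with a log2 fold change of 0.40 (limma adjusted p = 0.144), which was 0.18 without promoter KO 1 and 0.62 without promoter KO 2. Cdc6, which loads that helicase, was at 16.9 and 13.2 FPKM in the WT samples against 20.3 and 18.7 FPKM in the promoter KO samples, with a log2 fold change of 0.36 (limma adjusted p = 0.151), which was 0.20 without WT 2. Orc1 had a log2 fold change of 0.23 (limma adjusted p = 0.334), overlapped between genotypes and was at 0.042 without WT 2 and 0.41 without WT 1. The summed level of the 22 genes was 2092 and 1959.8 FPKM in the WT samples against 2234 and 2031 FPKM in the promoter KO samples, and these sums overlap.

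**Figure D5:**
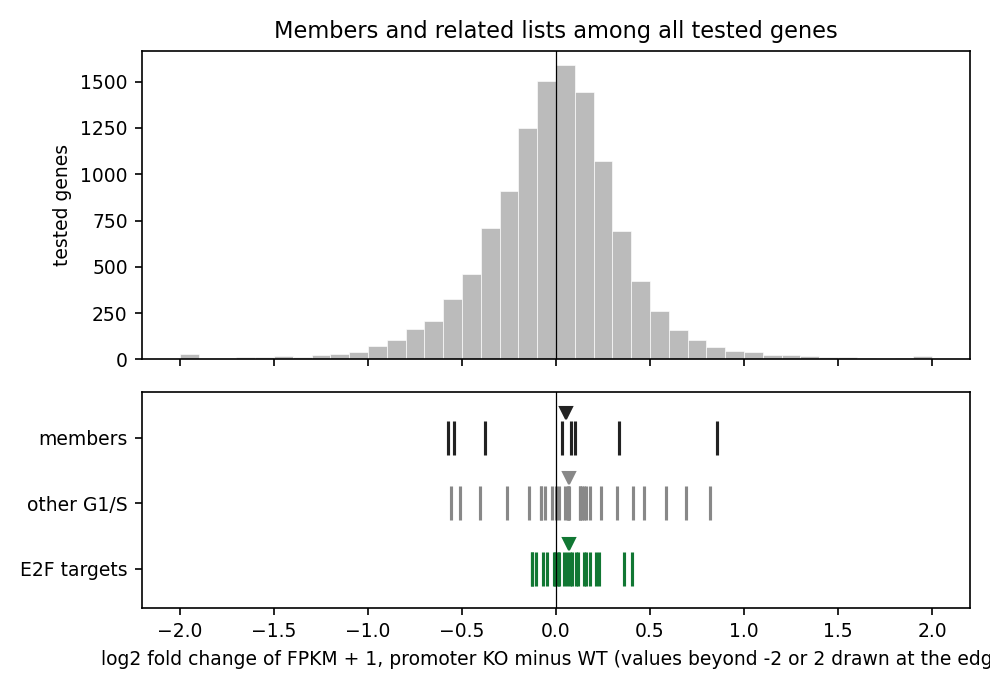
Upper panel: number of tested genes (y axis) by log2 fold change of FPKM + 1, promoter KO minus WT (x axis). Lower panel: each tick is 1 tested gene among the members, the other G1/S genes or the E2F target genes, and triangles mark the medians of 0.05, 0.07 and 0.07. The E2F target genes lie between -0.13 and 0.40, and the members between -0.57 and 0.86.

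The members lie on 8 chromosomes, and the median log2 fold change of the tested genes of those chromosomes ran from -0.04 on chromosome 7, which carries Ccnd1, to 0.13 on chromosome 6, which carries Ccnd2 and Cdkn1b. The median of chromosome 6 was the highest of the chromosomes with at least 100 tested genes. Ccnd2 and Cdkn1b lay below it, at -0.57 and -0.38. On chromosome 4, with Cdkn2a and Cdkn2c, the median was -0.0044.

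Cell type markers differed by genotype beside these results, and in bulk RNA fewer cells of a type cannot be told apart from less RNA per cell. Over all tested genes limma called 1.89% lower and 1.68% higher. Of 10 mesendoderm markers it called 6 lower and 0 higher. Their summed level was 803 and 1041 FPKM in WT 1 and WT 2 and 159 and 329.8 FPKM in samples 1 and 2 of promoter KO, T was the most abundant gene, and 0 of them were at 0 in all samples. T, which marks the primitive streak, was at 306 and 448 FPKM in the WT samples against 50.5 and 127 FPKM in the promoter KO samples (limma adjusted p = 0.0509). Mixl1 fell, with 63.0 and 76.3 FPKM in the WT samples against 5.56 and 15.9 FPKM in the promoter KO samples (limma adjusted p = 0.0389). Eomes, at 166 and 168 FPKM in WT against 56.3 and 97.1 FPKM in promoter KO, was not called (limma adjusted p = 0.0547). Foxa2, at 76.5 and 39.0 FPKM in WT against 19.7 and 37.5 FPKM in promoter KO, was not called either (limma adjusted p = 0.154). Markers of the labelled cell type were thus abundant in WT and less so in promoter KO.

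Where limma called 1.68% of all tested genes higher, it called 7 of 10 extraembryonic endoderm markers higher and 0 lower. Their summed level was 73.5 and 98.6 FPKM in the WT samples against 208 and 265 FPKM in the promoter KO samples. Sparc was the most abundant, at 46.0 and 59.3 FPKM in the WT samples against 111 and 134 FPKM in the promoter KO samples (limma adjusted p = 0.0318), and 0 of the markers were at 0 in all samples. Lama1, a basement membrane laminin, rose, with 1.51 and 2.18 FPKM in the WT samples against 14.5 and 22.7 FPKM in the promoter KO samples (limma adjusted p = 0.0208). Col4a1 rose too, with 9.37 and 11.4 FPKM in WT against 33.4 and 46.3 FPKM in promoter KO (limma adjusted p = 0.0233). Gata4 overlapped between genotypes, at 5.02 and 19.4 FPKM in WT against 9.68 and 13.8 FPKM in promoter KO (limma adjusted p = 0.842). Apoa1 overlapped as well, at 0.583 and 1.42 FPKM in WT against 0.243 and 3.30 FPKM in promoter KO. The sum of these markers was thus higher in both promoter KO samples, though not each marker was. Of the inhibitor genes, Cdkn1a, Cdkn1c, Cdkn2a, Cdkn2b and Cdkn2c were higher in both promoter KO samples, and Cdkn1b and Cdkn2d were lower. The genotypes did not overlap for 65.3% of all tested genes either. Of these inhibitor genes Cdkn2c was not tested, and of the others only Cdkn1a passed the test. The part of the mesendoderm and extraembryonic endoderm markers in the results for cyclins and inhibitors was not tested.

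At an unadjusted limma p under 0.05, 1786 of all 11941 tested genes were higher and 1863 lower. Of 10 naive pluripotency markers limma called 0, with 6 higher and 0 lower before adjustment (p under 0.05). Their summed level was 57.9 and 119 FPKM in the WT samples against 244 and 135 FPKM in the promoter KO samples, with Klf2 the most abundant. Of 8 general pluripotency markers limma called 2 higher, Utf1 and Dnmt3l, and 1 lower, Tdgf1 (3 and 2 at an unadjusted p under 0.05), with Pou5f1 the most abundant and a summed level of 2721 and 2477 FPKM in the WT samples against 3504 and 3126 FPKM in the promoter KO samples. Of 5 primed epiblast markers limma called 1 higher, Pou3f1, and 0 lower, with Dnmt3b the most abundant and a summed level of 641 and 477 FPKM in the WT samples against 656 and 693 FPKM in the promoter KO samples. Of 6 trophoblast markers, 5 were tested and limma called 1 lower, Tfap2c (before adjustment, 1 was higher, Ascl2, and 2 were lower, at p under 0.05), with Krt8 the most abundant, Elf5 below 1 FPKM in each sample and a summed level of 89.3 and 188 FPKM in the WT samples against 59.7 and 81.7 FPKM in the promoter KO samples. Neuroectoderm markers other than Nes, the most abundant, were below 1 FPKM in each sample, 5 of 6 in all. Of these, Sox1, Pax6, Zic1 and Hes5 were each higher in both promoter KO samples than in either WT sample, at levels too low for the test, Neurog2 stayed near 0, and Nes was lower. The sum of the list, which is mostly Nes, was 22.5 and 25.2 FPKM in the WT samples against 9.42 and 17.2 FPKM in the promoter KO samples with 0 called by limma and 1 lower at an unadjusted p under 0.05. Of 6 fibroblast markers 3 were tested and limma called 0, with 1 lower at an unadjusted p under 0.05, Postn was at 0 in each sample, Thy1 was the most abundant, and the list summed to 14.3 and 13.5 FPKM in the WT samples against 18.3 and 12.1 FPKM in the promoter KO samples. The part of these markers in the results for the 10 genes was not tested.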

How the data were processed

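Total RNA of day 3 EBs was sequenced in 4 samples, 2 WT and 2 promoter KO, grouped by their labels. The deposited files hold FPKM computed by the authors, 1 value per gene and sample. The methods name TopHat, Cufflinks with GENCODE M4 and GRCm38/mm10, while the submitters' processing notes name HISAT2 2.1.0, Cufflinks and Cuffnorm, and which of them made these values was not settled. The methods give default parameters for TopHat, and the sources used here name no strand setting. Genes that overlap on opposite strands are therefore uncertain, as are near-identical copies (blastn 2.17.0, at least 95% identity over 200 bases of GENCODE M21 transcripts). Of the 10 members, 7 have an exon overlapped by another gene.

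Genotypes were compared on log2(FPKM + 1) by limma 3.58.1 under R 4.3.3 (functions lmFit and eBayes with an intensity trend, 3.99 prior degrees of freedom), two-sided, without covariates or further scaling, for genes that reached 1 FPKM in 2 or more samples, with Benjamini-Hochberg adjustment over all tested genes. The code was tested on simulated data. Reads were not used. To estimate what 1 fragment is worth, genes with 1 GENCODE transcript were used, of which 92 to 106 a sample fell within the fullest bin of 0.5% in a chosen search range. Named genes were all 10 members, called genes and up to 3 more by size in each G1/S or E2F group, up to 4 markers a list by level, and the 2 nearest profiles to each cyclin, with 1 further gene not reported here. Rbl1 and some markers named in counts of calls were chosen after their values were seen. The members and lists were chosen with earlier results of these data known. Alternatives were a replicate block, a pseudocount of 0.1, no filter, a mean of at least 5 FPKM, no trend, median centring, quantile normalization, leaving out each sample and a ratio of means.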

Additional observations from a re-analysis of the deposited data

How the results depend on the processing

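The 4 counts for the members and for all tested genes, those for the other G1/S and E2F target genes, and the log2 fold changes of 28 tested members and named genes were recomputed. limma called 201 genes higher and 226 lower in all; with no filter it called 0 and 0 of 18215 (2077 and 1982 at an unadjusted p under 0.05), with a mean of at least 5 FPKM 95 and 108, without the intensity trend 55 and 27, and with median centring 157 and 126. The cause was not tested. Leaving out each sample in turn gave 0 to 238 higher and 0 to 248 lower, with the lone sample of a genotype assumed to vary like the others. No member was called in any of these.

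The replicate number as a replicate block moved the counts to 535 and 667. The labels share only a number, and deviations of same-numbered samples correlated at 0.0348 over genes. With the block, 1 member was called higher, Cdkn2a (adjusted p = 0.0267 in limma, range over its alternatives 0.0267 to 0.274), 2 other G1/S genes were called higher and 2 lower (Ccne1 and Cdkn1a, E2f1 and E2f5), and 1 E2F target gene higher, Mcm2.

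Of the other G1/S genes, 0 were called higher with no filter and without the trend, and 0 to 2 when a sample was left out. Of the 8 tested members, 7 kept their direction throughout. For the 6 whose genotypes did not overlap, leaving out a sample could not turn it. Rb1, the other, overlapped and ran from 0.0031 to 0.073. Direction turned 5 times, each with a sample left out: Ccnd3 at -0.15 without WT 1 and -0.28 without promoter KO 2, Cdk2 at -0.073 without WT 2 and -0.023 without promoter KO 2, and Fbxo31 at 0.023 without promoter KO 2. With each sample left out in turn, Ccnd3 ran from -0.28 to 0.43, Cdk2 from -0.073 to 0.21 and Fbxo31 from -0.14 to 0.023. On the unfiltered fit Cdkn2c had a log2 fold change of 0.39 (limma adjusted p = 0.146), against a log2 ratio of means of 1.02 without a pseudocount. About 22.3 to 43.2 fragments a sample limit what can be said of it.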
